A study of Homo sapiens with 14 samples.

Results

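The M clones of the breast cancer line SUM149PT, M1 and M2, were compared with its EM clones, EM1, EM2 and EM3, in open chromatin. The counts of the 2 libraries of each clone were summed, so that the clone was the replicate, and the comparison used 10 of the 14 libraries and 5 of the 7 groups. A locus was named where both M clones lay above the highest, or both below the lowest, of the EM clones. SUM149PT is an established human line from an inflammatory breast cancer without oestrogen or progesterone receptors, and the remaining groups were the line labelled Parental and a clone called E. The assay was ATAC-seq: a transposase inserts sequencing adapters where DNA is not covered by nucleosomes. All cells were untreated, all groups stem from the same line, and each M and EM group is a single clone, so a trait of 1 clone counts as 1 of 2 or 1 of 3 replicates. What the clone letters stand for is not written in the labels; by its series title the work concerns plasticity between epithelial and mesenchymal states (EMT) and a state between them.

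In EMT, epithelial cells give up the contacts and polarity of a cell sheet and gain the shape and motility of mesenchymal cells, and cells with traits of both are called intermediate. Epithelial identity is held by transcription factors such as GRHL2, OVOL2 and ELF3 and by the splicing regulators ESRP1 and ESRP2, while repressors of the ZEB and SNAI families bind E-box sequences in epithelial promoters such as that of CDH1. Open chromatin marks promoters and enhancers that are or can be in use, and a region near a gene is not thereby shown to regulate it.

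The libraries of these 5 clones held between 9288524 counts (M2 replicate 1) and 16786823 counts (EM3 replicate 1) over the 65774 consensus regions (median width 407 bp), and the clone sums lay between 23812975 counts (M2) and 26444633 counts (EM3). The 2 libraries of a clone correlated at 0.944 to 0.967 across regions, in log2 values. M2 stood apart: across regions its correlation with M1 was 0.59 and with the EM clones 0.25 to 0.38, whereas M1 reached 0.68 with EM2, and EM1 and EM3 reached 0.97 with each other. Between EM1 and EM3, single libraries correlated at 0.93 to 0.966, which overlaps the range within a clone, so the EM clones held 1 closely similar pair; the call counts without either clone are given with the test. Nothing in the labels says whether separate cultures gave the libraries of a clone, so p-values measure the spread between these clones only.

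Between the M and the EM clones, more regions were called lower in M than higher. Levels are given as CPM (counts scaled to library size and between libraries by the TMM method), and regions counted as called where edgeR's quasi-likelihood F test gave a Benjamini-Hochberg adjusted p under 0.05 over all 65147 tested. Of these, 4641 were called (7.12%). In M, 3337 regions were lower (5.12%) and 1304 were higher (2.0%). The median log2 difference of the called regions was -3.91 among those lower and 3.37 among those higher, against 0.05 over all regions tested. All 4641 called regions had both M clones outside the EM range. The share that was higher was 28.1%; it was 39.3% of 4225 calls with loess scaling and 45.0% of 15304 calls in the DESeq2 Wald test, which called 8415 regions lower (12.9%) and 6889 higher (10.6%).

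The calls needed every EM clone. When EM1, EM2 or EM3 was left out, edgeR called 0 regions, with 10326, 14675 and 10738 regions at an unadjusted p under 0.05 and lowest adjusted p-values of 0.15, 0.0641 and 0.144. The DESeq2 Wald test called 6981, 11099 and 7874 regions in the same 3 reduced sets, of which 4247, 4607 and 4345 were among the 4641. Leaving out M2 gave 10118 edgeR calls and leaving out M1 gave 33502; the lone M clone is then assumed to vary like the EM clones. Leaving out single libraries gave between 3619 calls (without EM2 replicate 2) and 5404 calls (without M1 replicate 1). Of the 76 called regions among those named by the rules of this comparison, all 76 lost their call without any 1 of the EM clones, 16 without some single library and 56 kept it under each single library left out and each other scaling.

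The naming rule itself, which has no test, was met by 31432 regions (48.2%), 17011 lower (26.1%) and 14421 higher (22.1%). A gap of at least 1 on the log2 scale between the nearest M and the nearest EM clone left 9891 regions (15.2%), of which 7193 were lower (11%) and 2698 higher (4.14%). The EM clone nearest to the M clones was EM2 at 2385 of the 3337 called lower regions (71.5%), and the M clone nearest to the EM clones was M1 at 2184 of them (65.4%). Among the 1304 called higher regions the nearest EM clone was EM2 at 44.5% and EM3 at 41.5%, and the nearest M clone was M1 at 72.2%. The M clones were also far from alike: 10830 regions lay at least 1 log2 unit from the EM mean in M2 and under 0.5 units from it in M1, against 2267 with M1 and M2 exchanged. Over all tested regions M1 and M2 differed from the EM mean in the same direction at 67.1%. The map of M1 and M2 differences shows both the diagonal of shared change and the vertical band of M2 alone.

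**Figure D1:**
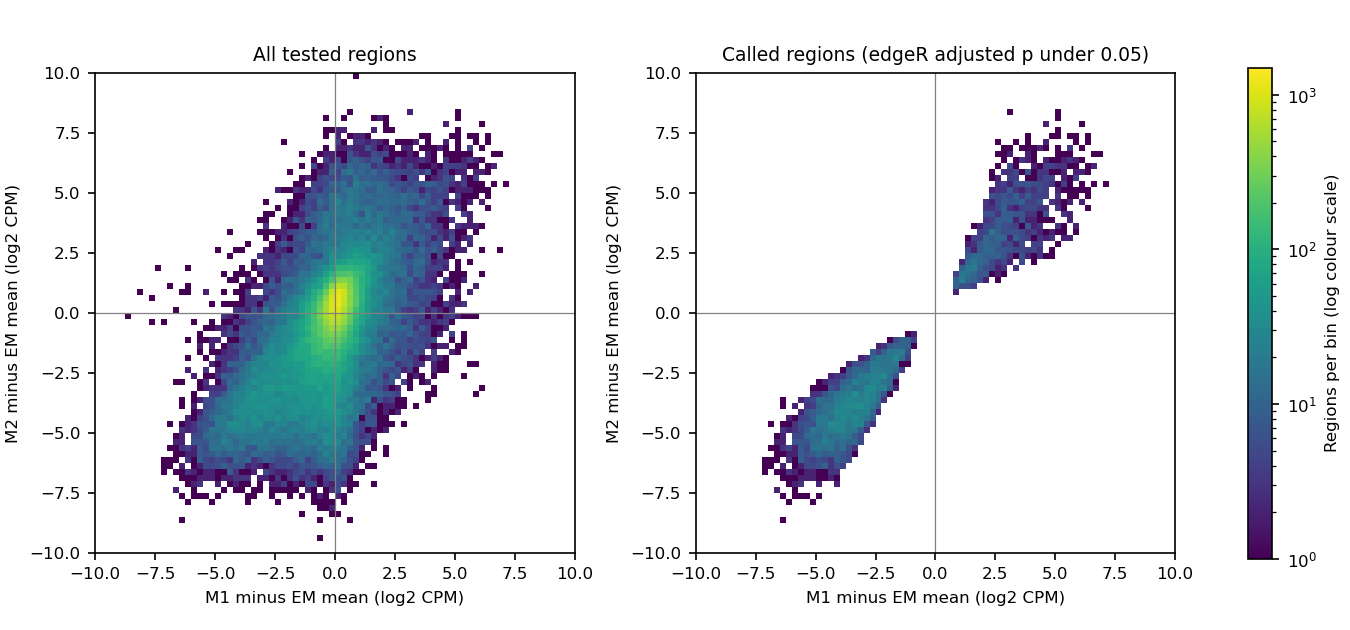
Difference of M1 (x axis) and M2 (y axis) from the mean of the 3 EM clones, in log2 CPM, as regions per 0.25 by 0.25 bin (log colour scale), for all 65147 tested regions (left) and the 4641 called regions (right). The called regions lie in 2 arms, 3337 with both clones lower and 1304 with both higher; a vertical band near 0 on the M1 axis holds regions that differ in M2 alone.

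The marker regions AMOTL2, RBBP8 and ESRP1 lost most of their signal in both M clones. AMOTL2 encodes a junction protein of the angiomotin family that binds the Hippo effector YAP1. Its region at chr3:134381824-134382235, outside the gene and 6407 bp from its end, held 33.4, 30.1 and 32.1 CPM in EM1, EM2 and EM3 and 0.162 and 0.373 CPM in M1 and M2, which are 4 and 8 counts. All EM values were close to one another and both M values near zero (log2 difference -6.89 ± 0.48 SE, edgeR adjusted p = 0.0188). Of the 14 regions nearest to AMOTL2, 4 fell and 0 rose. The other regions of its 10 Mb window had a median difference of -0.87 in M1 and 0.09 in M2.

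RBBP8, which encodes CtIP, a factor that starts the resection of broken DNA ends, had a region across a gene end at chr18:22913746-22914214. It held 35.7, 24.7 and 33.1 CPM in the EM clones and 0.283 and 0.280 CPM in M1 and M2 (log2 difference -6.77 ± 0.39, edgeR adjusted p = 0.0188). The M clones were level with each other and the EM clones kept their signal, as did Parental at 38.8 CPM. ESRP1, the epithelial splicing regulator, had 46.9, 45.9 and 42.9 CPM in EM1, EM2 and EM3 at chr8:94638891-94639572, outside the gene, against 2.55 in M1 and 0.280 in M2 (log2 difference -4.98 ± 0.94, edgeR adjusted p = 0.0426). This call was lost without M2 replicate 1 (adjusted p = 0.063), with scaling to library totals (0.0507) and with window medians removed (0.0559), while the region across the gene end at chr8:94640217-94641197 fell more evenly, from 52.5, 49.2 and 48.0 CPM to 4.73 and 6.01 CPM (log2 difference -3.22 ± 0.25, edgeR adjusted p = 0.0188).

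XYLT1, the fourth marker, went the opposite way. It encodes the xylosyltransferase that starts glycosaminoglycan chains on proteoglycans. Its region at chr16:17471251-17472014, 291 bp outside the gene, held 2.77, 5.77 and 4.12 CPM in EM1, EM2 and EM3 and 37.6 and 58.1 CPM in M1 and M2 (log2 difference 3.50 ± 0.41, edgeR adjusted p = 0.0201). Both M clones were far above every EM clone and above Parental at 4.11 CPM, while the 2 E libraries lay between, at 23.1 and 18.8 CPM. It was the 1 region nearest to XYLT1. Among regions within 10 kb of a protein-coding gene end and with mean signal above the median of all regions, it had the largest gap of those higher in M (2.69 log2 units); regions with weaker signal had wider ones, such as the MSX2 promoter at 5.44.

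By the same limits on signal and distance, the 10 largest losses included ERP27, which encodes a protein of the endoplasmic reticulum, CALML5, a calmodulin-like protein of keratinocytes, ALDH3B2, an aldehyde dehydrogenase, and GJB5, a connexin of epidermal gap junctions. The ERP27 region fell from 87.3, 65.4 and 67.9 CPM in EM1, EM2 and EM3 to 1.17 and 0.420 CPM in M1 and M2 (log2 difference -6.51 ± 0.55). The GJB5 region, across a gene end, fell from 57.5, 45.3 and 57.9 CPM to 2.47 and 1.68 CPM (-4.69 ± 0.33; edgeR adjusted p = 0.0188 for both). Among the gains were a region 279 bp inside ITPRIP and a region 7068 bp inside YAP1, the Hippo pathway's transcriptional co-activator. The YAP1 region rose from 6.74, 7.01 and 6.99 CPM to 32.1 and 38.7 CPM (2.36 ± 0.24, edgeR adjusted p = 0.019), with EM clones that were nearly identical.

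These 20 regions, 10 in each direction, were chosen for the gap between the same clone sums that the test compares. Their test results therefore describe them and support nothing. The same holds for the regions named from gene lists, which were up to 3 per list with the largest gaps. The AMOTL2 and RBBP8 marker regions are among those list regions. Of the 20, SH3BP4 and GPAM did not pass, with EM2 well above EM1 and EM3 at both (edgeR adjusted p = 0.0704 and 0.0653). PITPNM3, among the 10 losses, was lost without M1 replicate 2 (adjusted p = 0.0582). Only 2 of the 20, at CAPN8 and C13orf46, lay in a 10 Mb window whose median differed from the EM mean by at least 1, by -1.12 and -1.10 in M2. Parental lay within or above the EM range at all 10 losses.

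**Figure D2:**
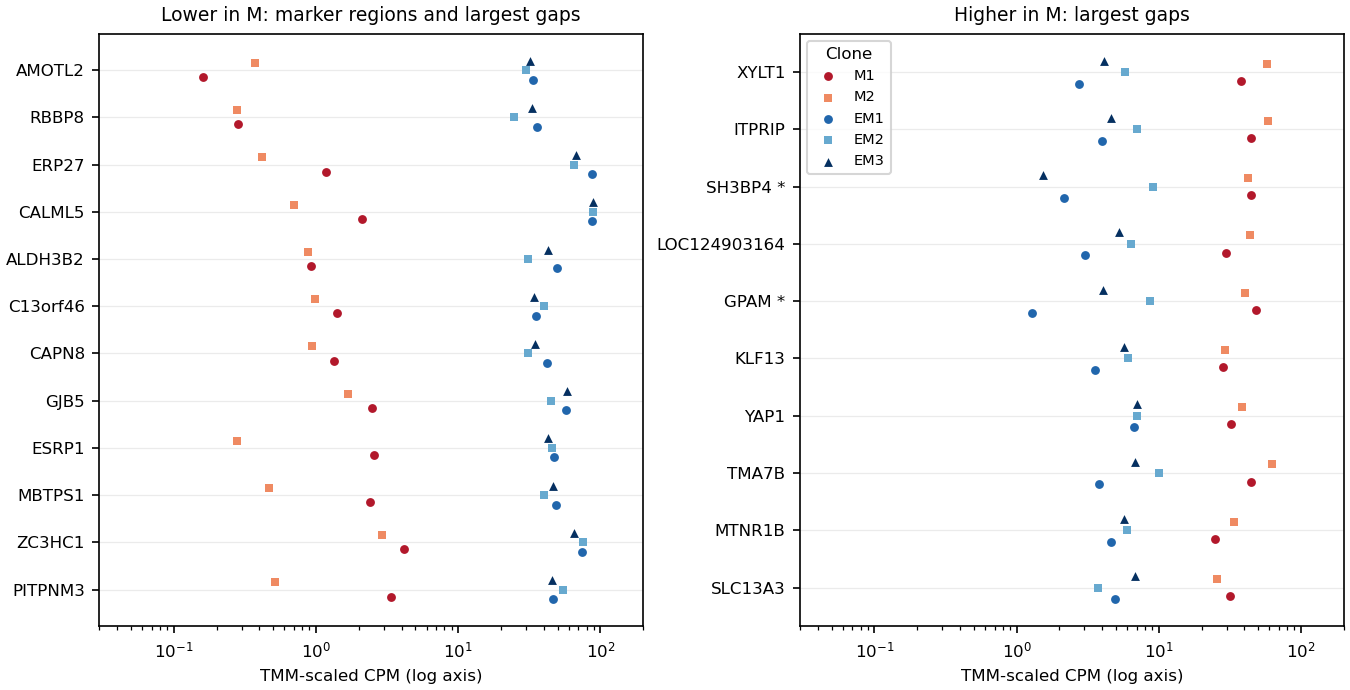
TMM-scaled CPM (log axis) of each clone sum at the regions with the largest gaps between M and EM clones (signal above the median, within 10 kb of a gene end), with the AMOTL2 and RBBP8 marker regions; each point is 1 clone, and * marks a region that did not pass the test. Every M point is to the left of every EM point in the left panel and to the right in the right panel, and the M points at RBBP8 sit at 0.283 and 0.280 CPM.

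Promoters were called less often than other regions, and their direction depended on the measure. Of 8900 regions that overlap a RefSeq promoter window (250 bases before to 50 after a start, GRCh38.p14), 79 fell (0.888%) and 31 rose (0.348%), against 5.79% and 2.26% of the 56247 other regions. By the naming rule alone, however, 2167 promoter regions lay above the EM range (24.3%) and 830 below it (9.33%), against 21.8% and 28.8% of the others, and the DESeq2 Wald test called 355 higher and 205 lower. Most of the promoters that fell were poor in CpG, with a median of 4 CpG dinucleotides in the 250 bases upstream of the start, against 17 in those that rose and 22 in those not called. The letters CACCTG, on either strand, which ZEB and SNAI repressors bind, were present in these 250 bases in 44 of the 79 promoters that fell (55.7%) and in 5 of the 31 that rose (16.1%). They were present in 1336 of 8790 tested promoters that were not called (15.2%) and in 2709 of 15842 protein-coding promoters overall (17.1%). Among promoters not shown, STS (the widest gap of those that fell), IL1RN and DSG3 fell without these letters, and DOCK10 rose with them. The promoters below show the E-box in capitals where present, 5′ to 3′ on the gene's strand and ending at the base before the annotated start. They are losses at epithelial genes with and without it and 2 of the gains. These promoters were chosen after their values were seen and not in proportion to the E-box shares. Their test results therefore describe them and support nothing.

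For each, the name is followed by the sequence, from RefSeq.
MACC1: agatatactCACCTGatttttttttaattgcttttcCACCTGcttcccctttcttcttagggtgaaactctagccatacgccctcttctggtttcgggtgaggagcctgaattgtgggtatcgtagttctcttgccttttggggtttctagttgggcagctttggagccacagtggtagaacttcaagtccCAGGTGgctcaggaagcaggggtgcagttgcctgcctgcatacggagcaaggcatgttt
RAB25: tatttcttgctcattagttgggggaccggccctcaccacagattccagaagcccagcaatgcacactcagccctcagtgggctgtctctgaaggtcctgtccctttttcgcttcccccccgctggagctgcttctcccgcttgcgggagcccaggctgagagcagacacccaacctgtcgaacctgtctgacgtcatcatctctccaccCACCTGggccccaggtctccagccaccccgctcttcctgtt
AP1M2: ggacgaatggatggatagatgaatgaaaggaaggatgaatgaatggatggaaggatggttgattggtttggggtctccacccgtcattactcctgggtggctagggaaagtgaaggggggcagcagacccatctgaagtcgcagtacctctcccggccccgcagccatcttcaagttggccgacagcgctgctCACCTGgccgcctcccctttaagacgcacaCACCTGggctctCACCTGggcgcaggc
DSP: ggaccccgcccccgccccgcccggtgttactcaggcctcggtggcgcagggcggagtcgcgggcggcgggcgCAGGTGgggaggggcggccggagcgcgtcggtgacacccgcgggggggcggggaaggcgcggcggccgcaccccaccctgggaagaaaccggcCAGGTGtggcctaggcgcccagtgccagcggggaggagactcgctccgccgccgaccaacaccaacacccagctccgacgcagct
OCLN: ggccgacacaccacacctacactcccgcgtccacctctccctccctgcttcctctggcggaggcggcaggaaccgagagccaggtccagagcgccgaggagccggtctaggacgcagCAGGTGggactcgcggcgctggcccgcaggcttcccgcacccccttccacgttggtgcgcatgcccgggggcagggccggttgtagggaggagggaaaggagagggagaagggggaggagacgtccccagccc
CLDN4: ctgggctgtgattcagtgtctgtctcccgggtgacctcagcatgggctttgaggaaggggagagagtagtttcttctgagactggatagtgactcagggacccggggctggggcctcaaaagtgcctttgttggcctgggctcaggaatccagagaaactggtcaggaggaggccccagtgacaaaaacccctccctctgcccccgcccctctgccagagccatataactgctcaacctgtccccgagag
MSX2: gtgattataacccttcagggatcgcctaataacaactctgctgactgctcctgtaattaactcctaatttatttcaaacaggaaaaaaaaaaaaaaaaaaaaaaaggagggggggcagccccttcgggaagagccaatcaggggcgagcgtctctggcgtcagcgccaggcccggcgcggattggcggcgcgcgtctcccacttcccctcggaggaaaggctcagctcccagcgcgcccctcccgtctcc
WWTR1: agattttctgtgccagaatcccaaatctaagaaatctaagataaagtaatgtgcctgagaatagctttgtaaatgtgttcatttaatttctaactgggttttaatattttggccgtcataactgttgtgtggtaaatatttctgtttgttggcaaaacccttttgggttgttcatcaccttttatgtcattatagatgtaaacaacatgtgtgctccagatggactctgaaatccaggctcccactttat

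MACC1, a regulator of MET signalling, holds the E-box 3 times (chr7:20217385-20217634, minus strand), and its promoter region fell from 14.8, 15.3 and 9.38 CPM in EM1, EM2 and EM3 to 0.121 and 0.0933 CPM in M1 and M2 (3 and 2 counts; log2 difference -6.87 ± 0.55, edgeR adjusted p = 0.0188). RAB25, a GTPase of epithelial membrane recycling, has it once (chr1:156060910-156061159, plus strand) and fell from 15.2, 11.4 and 11.4 CPM to 0.323 and 0.187 CPM. AP1M2, a subunit of the epithelial sorting adaptor AP-1B, has it 3 times (chr19:10587313-10587562, minus strand) and fell from 5.998, 3.37 and 4.01 CPM to 0.364 and 0.326 CPM. In all 3 the M clones were near zero and did not overlap the EM clones.

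DSP and OCLN, with CpG-rich promoters that hold the E-box, kept part of their signal. The desmoplakin gene DSP (2 E-boxes and 33 CpG; chr6:7541421-7541670, plus strand) fell from 39.4, 45.9 and 41.7 CPM to 12.2 and 7.55 CPM (log2 difference -2.10 ± 0.30, edgeR adjusted p = 0.0261). The occludin gene OCLN (1 E-box and 20 CpG; chr5:69492540-69492789, plus strand) fell from 23.8, 18.1 and 17.4 CPM to 5.17 and 5.87 CPM (-1.84 ± 0.31, edgeR adjusted p = 0.0346). CLDN4, a tight junction claudin (chr7:73830746-73830995, plus strand), has no E-box of these letters in the window, yet it fell from 24.3, 13.0 and 19.1 CPM to 0.970 and 0.187 CPM (-4.99 ± 0.83, edgeR adjusted p = 0.0341).

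Both gains shown were at promoters nearly closed in the EM clones. MSX2, a homeobox factor active in neural crest and mammary development (chr5:174724332-174724581, plus strand), rose from 0.195, 0.271 and 0.257 CPM (between 5 and 7 counts) to 17.5 and 15.2 CPM (6.05 ± 0.40, edgeR adjusted p = 0.0188). WWTR1, which encodes the YAP1 paralog TAZ (chr3:149703274-149703523, minus strand), rose at this start from 1.05, 0.465 and 0.993 CPM to 7.72 and 13.3 CPM (3.64 ± 0.57, edgeR adjusted p = 0.0297).

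The E-box share of called lower promoters was above that of uncalled ones in both CpG classes. Among promoters with at most 10 CpG it was 29 of 59 that fell (49.2%) and 164 of 1052 not called (15.6%), and among those with more it was 15 of 20 (75%) and 1172 of 7738 (15.1%). With DESeq2 it was 102 of 205 lower promoters (49.8%) and 28 of 355 higher ones (7.89%), and in the DESeq2 sets without EM1, EM2 or EM3 it was 58.9%, 53.1% and 54.6% of lower promoters. Promoters whose M clones lay at least 1 log2 unit below the EM range had it in 84 of 164 (51.2%), with no test involved. The share was smaller in wider sets: 265 of the 830 promoters below the EM range by any amount (31.9%), 26.5% of 927 called lower without M1, and 28.1% of 1273 with libraries as units (27.5% of 1430 with the replicate block). In these sets the promoters higher in M had it at 10.3% to 11.6%. Of the 6 other motifs searched on both strands, AP-1 (TGANTCA) was in 15.2% of promoters that fell, 16.1% of those that rose and 4.6% of those not called. RUNX (TGTGGT) was in 25.3%, 25.8% and 7.57%, and the GRHL core (AACNNGTT) in 7.59%, 0% and 2.21%. TEAD (GGAATG) was in 11.4%, 22.6% and 8.99%, the TATA box (TATAAA) in 8.86%, 0% and 4.66%, and CCAAT in 34.2%, 22.6% and 37.3%. These pooled shares mix promoters of unlike CpG content. Among promoters with at most 10 CpG, the fallen and the uncalled ones had AP-1 at 20.3% and 17.9%, RUNX at 30.5% and 16.4%, the GRHL core at 10.2% and 5.51%, and CCAAT at 39.0% and 39.7%. TEAD and the TATA box turned there, to 11.9% against 16.3% and 11.9% against 14.4%. These are letters in a window and not measured binding.

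**Figure D3:**
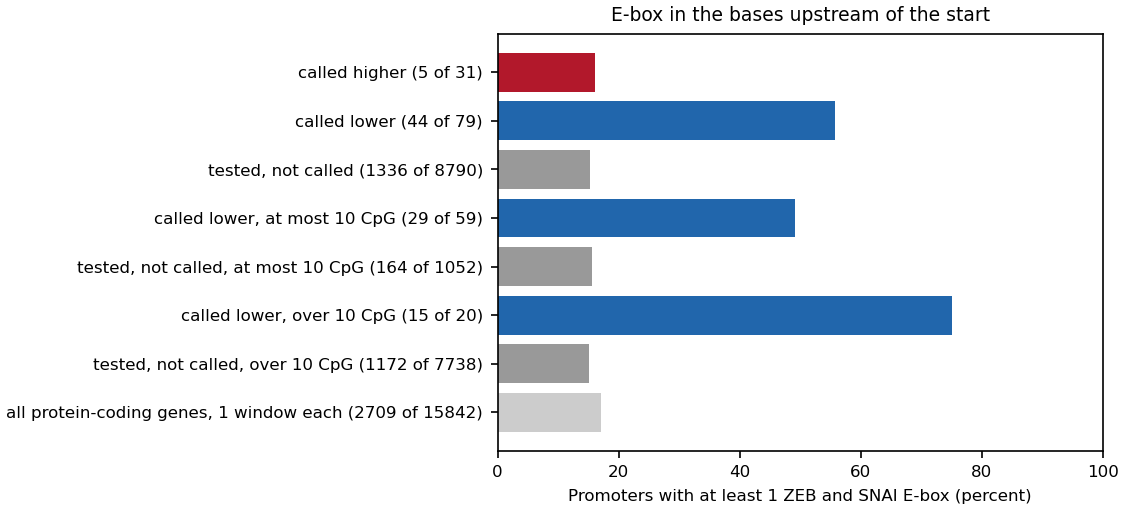
Percent of promoters with at least 1 E-box (CACCTG on either strand) in the 250 bases upstream of the start, by the M versus EM call of the overlapping region and by CpG content; the numbers in brackets are promoters with it of promoters in the class. The bars of promoters that fell reach 55.7% over all, 49.2% at low and 75% at high CpG, and all other bars lie between 15.1% and 17.1%.

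The epithelial regulators had calls in the lower direction. Each region was given to the nearest protein-coding gene by distance to a gene end, up to 50 kb, and only tested regions are counted. Of 104 regions of 18 epithelial transcription factors 17 fell and 0 rose, with a median log2 difference of -0.62, against 5.12% lower, 2.0% higher and a median of 0.05 over all regions. Of the 104, 50 lay below the EM range (48.1%, against 26.1% of all regions) and 14 above it (13.5%, against 22.1%). The DESeq2 Wald test called 33 lower and 8 higher, against 12.9% and 10.6% of all regions. The 17 lay at 11 of the 18 genes, among them ZNF750 with 3, GRHL2, OVOL2, ELF3 and TP63 with 2 each, and GRHL3, EHF, ELF5, OVOL1 and KLF5 with 1 each. Not all of these genes were lower throughout. GRHL3 had 5 of its 9 regions above the EM range and 2 below, and EHF had 4 above and 4 below of 12. Of 18 regions of the splicing regulators ESRP1, ESRP2 and RBM47, 5 fell and 0 rose (median -1.44). The ELF5 call was lost without M2 replicate 1 or M1 replicate 2 (adjusted p = 0.0564 and 0.0588), and the RBM47 call without EM2 replicate 2 or EM3 replicate 2 (adjusted p = 0.0501 and 0.0596).

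GRHL2, which keeps epithelial genes open, had 33.1, 23.4 and 22.0 CPM in EM1, EM2 and EM3 across its gene end at chr8:101492217-101492855, and 0.808 and 0.0466 CPM in M1 and M2, the latter a single count (log2 difference -5.89 ± 1.05, edgeR adjusted p = 0.0388). OVOL2, a zinc finger repressor of mesenchymal genes, fell across its gene end at chr20:18058711-18059345 from 31.1, 25.2 and 36.6 CPM to 2.75 and 1.31 CPM (-3.93 ± 0.47, edgeR adjusted p = 0.0207). At both of these gene-end regions M2 was lower than M1, and both M clones were far below every EM clone. Over its 13 regions, however, GRHL2 summed to 86.1 and 79.9 CPM in M1 and M2, against 157.0, 161.0 and 143.5 CPM in EM1, EM2 and EM3. Of the 13, 2 fell, and 7 lay below and 1 above the EM range. The 3 regions of OVOL2 summed to 3.96 and 3.26 CPM against 51.6, 43.2 and 54.8 CPM. ZNF750, a factor of epidermal differentiation, fell at a region 18383 bp outside the gene from 29.9, 23.6 and 24.8 CPM to 1.05 and 0.420 CPM (-5.13 ± 0.53, edgeR adjusted p = 0.019). The call at its gene end was lost without M2 replicate 2 (adjusted p = 0.0857).

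Several other epithelial factors did not pass the test at their gene ends, and only some of these kept their signal in both M clones. The promoter regions of GRHL1 (32.0 and 38.3 CPM in M1 and M2 against 31.3, 37.4 and 28.8 CPM) and KLF4 (41.5 and 37.4 against 41.4, 46.1 and 38.2 CPM) lay across the EM range, with edgeR adjusted p-values of 0.764 and 0.795. FOXA1, a pioneer factor of luminal cells, and GRHL3 did not pass either. The ELF3 promoter had 46.2, 36.1 and 42.0 CPM in the EM clones and 6.63 and 1.45 CPM in M1 and M2, and just missed the threshold (-3.35 ± 0.70, edgeR adjusted p = 0.0525). TFAP2A divided the M clones: M1 kept 30.2 CPM and M2 0.466 CPM, against 46.2, 45.5 and 43.1 CPM in EM1, EM2 and EM3 (edgeR adjusted p = 0.493).

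Regions of EMT-inducing factors were near the shares of all regions. Of 40 regions of 10 such factors 0 rose and 3 fell (7.5%), 2 at TCF4 and 1 at ZEB2, against 2.0% and 5.12% overall. Above the EM range lay 9 (22.5%, against 22.1%) and below it 7 (17.5%, against 26.1%). The DESeq2 Wald test called 4 higher and 4 lower, against 10.6% and 12.9% of all regions. The ZEB1 promoter had 25.9 and 21.5 CPM in M1 and M2 and 18.9, 21.6 and 17.95 CPM in EM1, EM2 and EM3, with overlapping values (log2 difference 0.28 ± 0.24, edgeR adjusted p = 0.481). The gene-end regions of SNAI1 (15.8 and 14.7 against 15.1, 17.3 and 13.4 CPM) and SOX9 (25.3 and 16.8 against 20.6, 25.6 and 15.5 CPM) overlapped the EM range too, and that of TWIST1 lay just above it without passing (15.5 and 14.8 against 12.0, 14.2 and 13.0 CPM; edgeR adjusted p = 0.612). SNAI2 was high in M2 alone, at 35.2 CPM against 9.17 in M1 and 14.3, 17.4 and 13.5 CPM in the EM clones. TWIST2 was above all EM clones in both (27.0 and 32.9 against 8.92, 20.2 and 9.67 CPM) without passing the test (edgeR adjusted p = 0.146). For OVOL1, KLF5, TP63, SPDEF, GATA3, ESRP2, ZEB2, PRRX1, TCF4, FOXC2 and CDH2 the table had no region within 1 kb of a gene end.

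The TCF4 region that fell most held 9.35, 2.75 and 10.4 CPM in the EM clones and 0.121 and 0.233 CPM in the M clones (3 and 5 counts), with EM2 between the M clones and the other EM clones. Its call was lost without M2 replicate 1 (adjusted p = 0.05003) and without M1 replicate 2 (adjusted p = 0.0588). The ZEB2 region fell from 13.9, 17.9 and 13.1 CPM to 2.75 and 3.22 CPM (-2.33 ± 0.35, edgeR adjusted p = 0.0275), 14270 bp inside the gene.

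**Figure D4:**
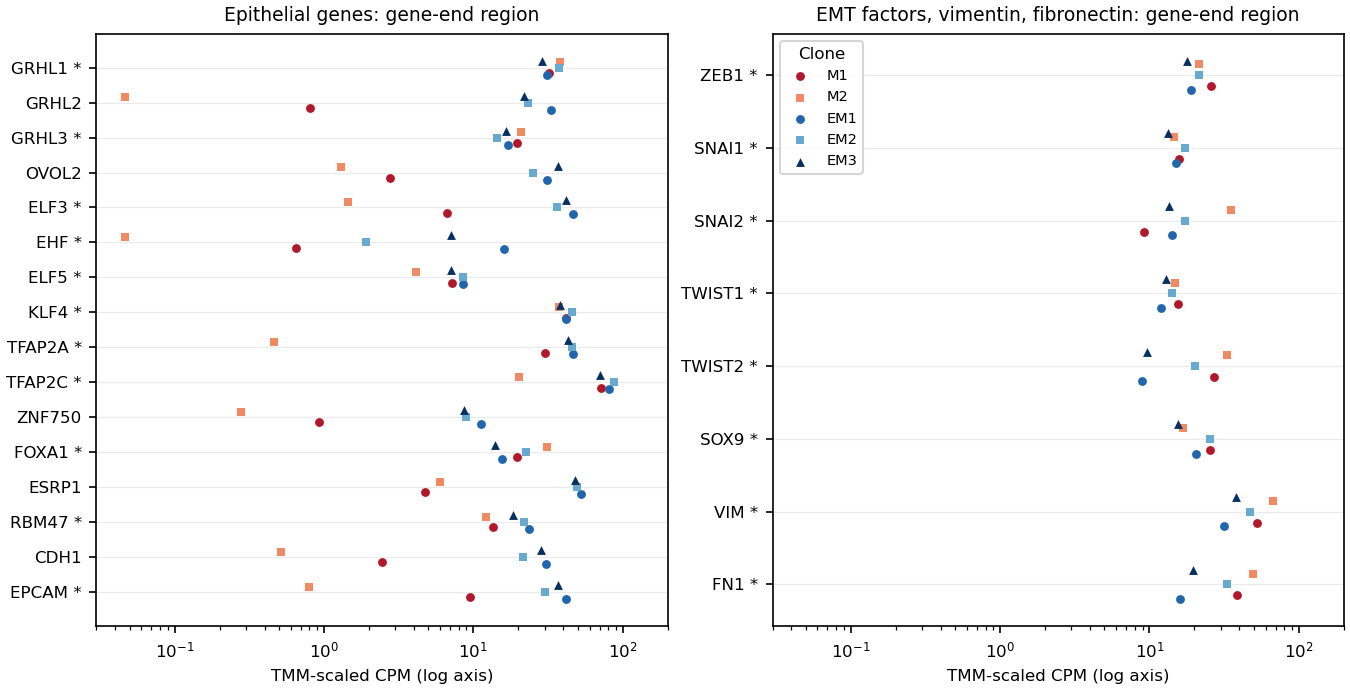
TMM-scaled CPM (log axis) of each clone sum at the strongest region within 1 kb of a gene end, for epithelial genes (left) and for EMT factors, vimentin and fibronectin (right); each point is 1 clone, and * marks a region that did not pass the test. GRHL2, OVOL2, ZNF750, ESRP1 and CDH1 passed with both M clones to the left; no region in the right panel passed.

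Adhesion genes followed the epithelial factors. Of 76 regions of adherens and tight junction genes 13 fell (17.1%), of 46 desmosome regions 10 fell (21.7%), and of 13 regions of matriptase and its inhibitors 4 fell (30.8%), with 0 higher in each and medians of -0.995, -1.12 and -1.34. Over all regions 5.12% were lower and 2.0% higher, with a median of 0.05. The DESeq2 Wald test called 28, 22 and 7 regions of these lists lower and 2, 1 and 0 higher, against 12.9% and 10.6% of all regions. Hemidesmosome genes lost 5 of 54 (9.26%) and keratins 6 of 47 (12.8%), with medians of -0.28 and -0.10. The E-cadherin gene CDH1 lost 5 of its 10 regions and had 9 of 10 below the EM range. An element 18839 bp inside CDH1, at chr16:68756131-68756646, fell from 70.1, 39.9 and 63.5 CPM in EM1, EM2 and EM3 to 2.99 and 2.15 CPM in M1 and M2 (-4.49 ± 0.40, edgeR adjusted p = 0.0188). The P-cadherin gene CDH3, its neighbour, lost 2 of 8.

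In desmosomes, the rivet-like contacts of epithelia, DSP lost 4 of 5 regions and DSG3 2 of 4. The DSG3 promoter fell from 18.9, 14.4 and 14.1 CPM in EM1, EM2 and EM3 to 0.485 and 0.280 CPM in M1 and M2, and a region 14163 bp inside JUP, which encodes plakoglobin, fell from 17.8, 14.9 and 18.1 CPM to 0.404 and 0.280 CPM (-5.60 ± 0.42; edgeR adjusted p = 0.0188 for both). ITGA6, the hemidesmosome integrin subunit, fell from 11.7, 11.4 and 12.2 CPM to 0.889 and 0.513 CPM. The matriptase inhibitor gene SPINT1 fell from 33.6, 20.9 and 30.4 CPM to 1.54 and 0.793 CPM (-4.59 ± 0.48, edgeR adjusted p = 0.019). Among keratins, KRT17 lost 3 of 5 regions and KRT6A and KRT6B 1 each; keratin genes have close copies, so reads there may have been split between them. At LAMB3, a laminin-332 chain, the call was lost without EM2 replicate 2 (adjusted p = 0.0674).

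EPCAM shows the unevenness of the M clones. Its gene-end region held 41.5, 30.0 and 36.8 CPM in EM1, EM2 and EM3, 9.54 CPM in M1 and 0.793 CPM in M2, all below the EM range, and did not pass (-2.80 ± 1.01, edgeR adjusted p = 0.148). Summed over the 53 regions of the epithelial markers CDH1, EPCAM, GRHL2, ESRP1, OVOL2, ELF3 and CLDN4, M1 had 362.9 CPM and M2 344.0 CPM, against 1242, 963.5 and 1138 CPM in EM1, EM2 and EM3. Of these regions 16 fell and 0 rose, against 5.12% and 2.0% of all regions.

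**Figure D5:**
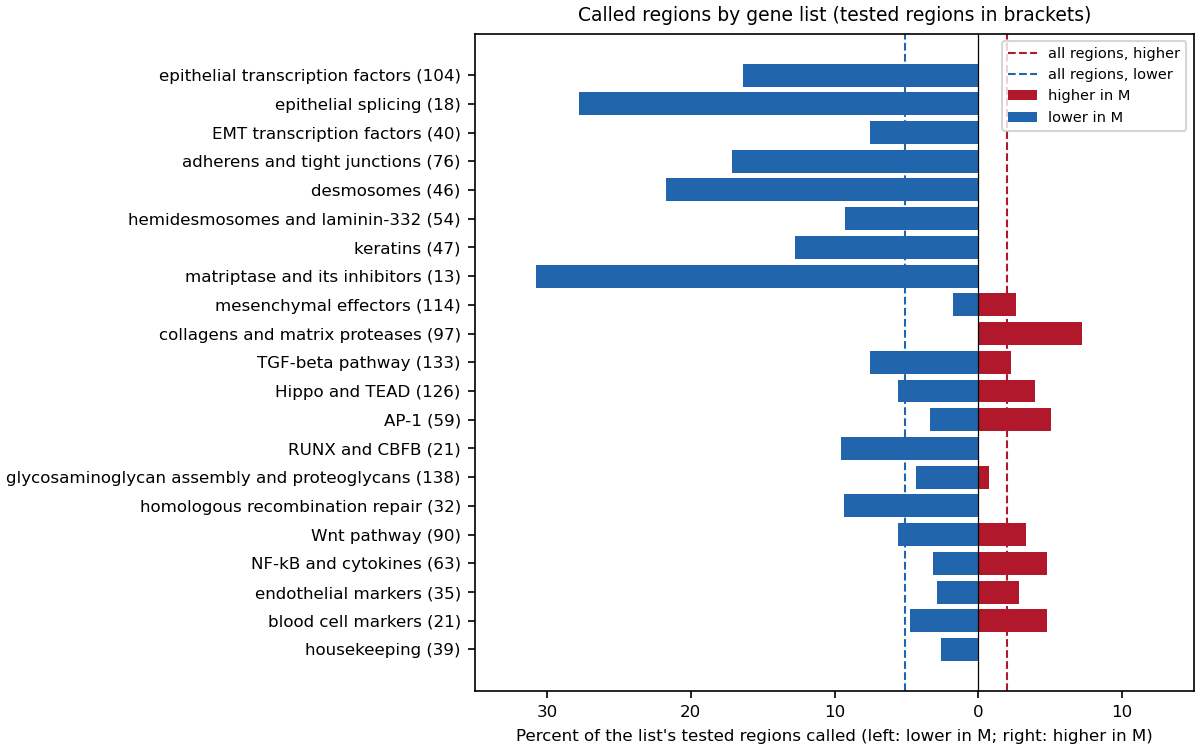
Percent of each gene list's tested regions called lower (blue, left) or higher (red, right) in M, with the number of tested regions in brackets; dashed lines mark the shares over all tested regions, 5.12% lower and 2.0% higher. Bars of the first 8 lists extend to the left only, from 7.5% to 30.8%, and collagens and matrix proteases have 7 of 97 regions higher and 0 lower.

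Calls at mesenchymal genes differed between the tests. Of 114 regions of mesenchymal effector genes 3 rose (2.63%) and 2 fell (1.75%) in the edgeR test, while the DESeq2 Wald test called 23 higher (20.2%, against 10.6% of all regions) and 4 lower. Of the 114, 44 lay above the EM range (38.6%, against 22.1% of all regions) and 16 below it (14.0%, against 26.1%), with a median of 0.46. The vimentin promoter (VIM) had 52.7 and 66.7 CPM in M1 and M2 against 31.6, 47.0 and 38.1 CPM (0.62 ± 0.25, edgeR adjusted p = 0.181), and the fibronectin promoter (FN1) 38.6 and 49.6 CPM against 16.1, 32.9 and 19.6 CPM (0.95 ± 0.36, edgeR adjusted p = 0.167). At both, the M clones were above all EM clones with EM2 nearest, and neither passed. Over the 28 regions of VIM, CDH2, FN1, ZEB1, ZEB2, PDGFRB and THY1 the sums were 558.6 and 705.9 CPM in M1 and M2 and 380.7, 444.0 and 374.1 CPM in the EM clones. Of these 14 lay above the EM range and 2 below, and 1 rose and 1 fell.

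Some matrix genes had gains. In the list of collagens and matrix proteases, 7 of 97 regions rose (7.22%, against 2.0% of all regions) and 0 fell (against 5.12%). The 7 lay at 4 of 19 genes, with 3 at COL1A2, 2 at ADAM12 and 1 each at COL5A1 and COL5A2. The DESeq2 Wald test called 14 higher and 3 lower, against 10.6% and 12.9% of all regions. Above the EM range lay 31 (32.0%, against 22.1%) and below it 17 (17.5%, against 26.1%), with a median of 0.20. COL4A2 had 3 regions below and 0 above it, and MMP2 3 below and 1 above. A region 19412 bp outside COL1A2, a chain of type I collagen, held 0.117, 0.116 and 0.0368 CPM in the EM clones and 9.34 and 5.60 CPM in M1 and M2 (6.31 ± 0.74, edgeR adjusted p = 0.0201). A region 14163 bp inside ADAM12, a metalloprotease, rose from 0.506, 0.465 and 0.625 CPM to 13.6 and 8.86 CPM (4.38 ± 0.46, edgeR adjusted p = 0.019). From the list of mesenchymal effectors, SPARC, a matrix glycoprotein of mesenchymal cells, and LOXL2, a collagen cross-linking enzyme, each had a region that fell. The SPARC call was lost without M2 replicate 2 (adjusted p = 0.064) and that at LOXL2 with loess scaling.

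Lists of signalling genes had calls in both directions, many at shares near those of all regions (5.12% lower and 2.0% higher). In some of these lists the balance turned with the test. The AP-1 list and the NF-kB and cytokine list had more regions higher than lower with both edgeR and DESeq2. In the DESeq2 Wald test 10.6% of all regions were higher and 12.9% lower. Of all regions, 22.1% lay above and 26.1% below the EM range. In the TGF-beta pathway 10 of 133 regions fell (7.52%), at ID1, ID2, ID3, SMAD3, SMAD6, SMAD7 and TGFBR2, and 3 rose (2.26%), 2 at SMAD3 and 1 at TGFBI. By contrast 44 lay above (33.1%) and 34 below the EM range (25.6%), and the DESeq2 Wald test called 22 higher and 15 lower. The element that rose at SMAD3, which encodes a receptor-activated transducer, lies 43798 bp inside the gene at chr15:67109400-67109906 and went from 0.234, 0.271 and 0.699 CPM to 30.6 and 15.6 CPM (5.83 ± 0.67, edgeR adjusted p = 0.0201). The inhibitor gene SMAD7 fell 40749 bp outside the gene from 31.6, 18.5 and 29.5 CPM to 1.41 and 0.653 CPM (-4.67 ± 0.54, edgeR adjusted p = 0.0201), where the 10 Mb window median was -0.24 in M1 and -1.19 in M2. SMAD3 had 13 of 17 regions above the EM range (against 22.1% of all regions). ID1 and ID2 had 5 of 9 and 5 of 7 below it (against 26.1%). TGFBR2, although named among the losses, had 4 of its 5 regions above the EM range and 1 below it.

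In the Hippo pathway 7 of 126 regions fell (5.56%), 4 of them at AMOTL2 and 1 each at AMOTL1, WWC1 and VGLL1, and 5 rose (3.97%), at YAP1, WWTR1, VGLL4, ANKRD1 and STK3. The DESeq2 Wald test called 16 of the 126 higher and 15 lower, against 10.6% and 12.9% of all regions. ANKRD1, a target of YAP1, rose 9875 bp outside the gene from 0.273, 1.28 and 0.772 CPM in EM1, EM2 and EM3 to 12.7 and 49.9 CPM in M1 and M2 (5.33 ± 0.88, edgeR adjusted p = 0.0338), with E replicate 1 at 13.0 CPM and E replicate 2 at 3.17 CPM. As background, AMOTL2, AMOTL1 and WWC1 restrain YAP1, and so do VGLL4 and STK3, so regions nearest to restraining members are in both groups. The VGLL4 region lies 41395 bp outside that gene and overlaps another gene, ATG7. Of the 8 regions nearest to YAP1, 3 lay above and 2 below the EM range.

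AP-1 genes rose at 3 (5.08%) and fell at 2 (3.39%) of 59 regions, JUN having both, and the DESeq2 Wald test called 14 higher and 5 lower. Over all regions the DESeq2 Wald test called 10.6% higher and 12.9% lower. The JUN region that rose had 0.0390, 0.116 and 0.552 CPM in the EM clones and 7.60 and 17.7 CPM in M1 and M2, a call lost without EM1 replicate 1, EM2 replicate 2 or EM3 replicate 2 (adjusted p = 0.0517, 0.0662 and 0.0568). The interleukin-1 cluster was divided in the same way: 2547 bp outside IL1B a region rose from 0.857, 1.24 and 0.736 CPM to 45.5 and 8.25 CPM (4.83 ± 0.80, edgeR adjusted p = 0.0337), while one 11238 bp outside IL1A fell from 16.3, 7.01 and 10.3 CPM to 0.485 and 0.933 CPM, a call that was lost with loess scaling. In the NF-kB and cytokine list 3 of 63 regions rose (4.76%) and 2 fell (3.17%), and the DESeq2 Wald test called 15 higher and 2 lower. Above the EM range lay 29 (46.0%, against 22.1% of all regions) and below it 8 (12.7%, against 26.1%). Wnt genes rose at 3 of 90 regions (WNT5B, WNT7B, LGR4; 3.33%) and fell at 5 (5.56%), against 11 higher and 6 lower in the DESeq2 Wald test. The LGR4 call was lost without EM2 replicate 2 (adjusted p = 0.0533), and the 10 Mb window of LGR4 had a median of -1.30 in M2. Of 21 regions of RUNX genes and their partner CBFB, 8 lay above (38.1%) and 3 below the EM range (14.3%), with a median of 0.46. In this list 0 rose and 2 fell, 1 each at RUNX2 and RUNX3, and the DESeq2 Wald test called 4 higher and 2 lower. Without EM2 replicate 2 both of these losses were no longer called (edgeR adjusted p = 0.0586 and 0.0559 for RUNX2 and RUNX3), and that of RUNX3 also without M1 replicate 2 (adjusted p = 0.0535).

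Of 138 regions of glycosaminoglycan and proteoglycan genes 1 rose (0.725%), that at XYLT1, and 6 fell (4.35%), 3 at EXTL3 and 1 each at SDC1, SDC4 and SULF1, against 2.0% and 5.12% of all regions. With window medians removed 3 rose, and the DESeq2 Wald test called 15 higher and 19 lower, against 10.6% and 12.9% of all regions. The syndecan gene SDC1 fell 7393 bp outside the gene from 29.6, 22.3 and 24.4 CPM to 0.808 and 0.233 CPM (-5.58 ± 0.64, edgeR adjusted p = 0.0201). Of 32 regions of homologous recombination genes 3 fell (9.38%, against 5.12%), at RBBP8, ATM and NBN, and 0 rose, with a list median of 0.05. The DESeq2 Wald test called 8 of the 32 lower and 1 higher, against 12.9% and 10.6% of all regions. The ATM region, 27751 bp inside the gene, fell from 17.6, 16.1 and 13.2 CPM to 0.647 and 0.513 CPM (-4.74 ± 0.40, edgeR adjusted p = 0.0188). RBBP8 itself had 1 of 6 regions lower.

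Genes with the most called regions, chosen after their values were seen, were on the lower side FAM110C (5 of 6), CDH1 (5 of 10), CAPN8 (5 of 12), DSP (4 of 5) and KCNK5 (4 of 7). CAPN8, a calpain of stomach epithelium, had all 12 regions below the EM range (against 26.1% of all regions). Its 10 Mb window had medians of -0.42 in M1 and -1.12 in M2, and 251 of the 435 regions there lay below and 26 above the EM range. On the higher side the genes were LMCD1 (4 of 6), IL1R1 (4 of 11), KLF13 (4 of 14), COL1A2 (3 of 5) and PDPN (3 of 6). PDPN, the podoplanin gene, had all 6 above the EM range (against 22.1% of all regions).

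Markers of other cells did not give a uniform signal. Over 25 regions of 5 endothelial genes the sums were 356.3 and 348.7 CPM in M1 and M2 and 187.9, 286.9 and 212.8 CPM in the EM clones, with 1 region higher (PECAM1) and 1 lower (TIE1). The PECAM1 call was lost without M2 replicate 1 (adjusted p = 0.0532), M1 replicate 2 (0.0513), EM2 replicate 2 (0.0515) or EM3 replicate 2 (0.052). TEK was at 71.3 and 45.4 CPM in M1 and M2 and 71.1 CPM in EM2 but at 0 and 0.0736 CPM in EM1 and EM3. Over 17 regions of 4 blood cell genes the sums were 252.7 and 257.1 CPM against 288.3, 233.7 and 268.1 CPM; KDR had no region. Their part in the results was not tested. Of 39 housekeeping gene regions 1 fell, at SDHA, and that call was lost without M2 replicate 1, M1 replicate 2, EM2 replicate 2, EM1 replicate 1 or EM3 replicate 2 (adjusted p = 0.0513, 0.05004, 0.0635, 0.0539 and 0.0525).

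Called regions lay far from genes more often than tested regions did. Of those higher in M 46.9% were over 50 kb from any protein-coding gene end, of those lower 39.0%, and of all tested 33.4%; 2.38% and 2.37% overlapped a promoter window, against 13.7%. By chromosome, the called lower share ran from 2.6% on chromosome 22 to 7.46% on chromosome 8, and the called higher share from 1.02% on chromosome 13 to 3.74% on chromosome 22, leaving out chromosome Y with 4 regions. Wide shifts in signal were mainly in M2: of 302 windows of 10 Mb, 29 had a median at least 1 below the EM mean in M2, 2 in M1 and 1 in both. The 6453 regions in windows shifted by at least 1 in either clone were called at 7.69% and the rest at 7.06%, and 4145 of the 4641 calls lay outside such windows. Smaller shifts shared by both M clones fall under this limit. On chromosome 8 the window from 80 Mb had medians of -0.625 in M1 and -0.626 in M2. Of its 198 regions 97 lay below and 12 above the EM range, with 26 called lower and 2 higher. The windows of ESRP1 and GRHL2 had medians of -0.51 and -0.40 in M1 and of -0.38 and -0.56 in M2. Such a shift and a change in the number of chromosome copies cannot be told apart in these counts.

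Parental and E, which did not enter the test, were set beside the called regions. Parental was nearer to the EM mean than to the M mean at 3332 of 3337 lower regions (99.9%) and 1297 of 1304 higher regions (99.5%). This closeness was not particular to the called regions. Over all tested regions Parental correlated at 0.95, 0.89 and 0.93 with EM1, EM2 and EM3 and at 0.51 and 0.27 with M1 and M2. The correlations of E were 0.78, 0.82 and 0.79 with the EM clones and 0.54 and 0.48 with M1 and M2. E was nearer to the EM mean at 96.2% of the lower regions but at 69.9% of the higher ones. There the 2 E libraries disagreed: E replicate 1 was nearer to EM at 51.5% and E replicate 2 at 86.2%. At the 10 largest gains E replicate 1 was above the EM range at all 10 and E replicate 2 at 4.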

How the data were processed

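ATAC-seq libraries of the clones M1, M2, EM1, EM2 and EM3 (2 each) were compared. The deposited table holds the authors' raw counts of reads per library in 65774 consensus regions on hg38; the submitters' processing notes name Bowtie2 2.2.6 (an aligner), cutadapt 1.9.1 (a trimmer), MACS2 2.1.1 (a peak caller) and featureCounts (a read counter), beside Picard, deepTools and bcl2fastq 2.20.0.422, without the role, order or settings of each; for the merging of peaks nothing is given in the sources used here. The authors' peak lists and interval file were not used.

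Counts were summed per clone, scaled by TMM, filtered with filterByExpr (minimum count 10; 627 regions removed, 65147 tested) and tested with edgeR 4.0.16 (R 4.3.3) quasi-likelihood F tests, with Benjamini-Hochberg adjustment over all tested regions and a threshold of 0.05. The coefficient of variation between clones was 0.522. The gap is the difference of log2 CPM (prior count 2) between the nearest M and the nearest EM clone. SE is the absolute fitted log2 difference divided by the square root of the test's F value. It therefore restates the test and is not a separate measure of precision. DESeq2 1.42.0 was an alternative; the others were library totals, DESeq2 size factors, loess offsets, no filter, 10 Mb window medians removed, libraries as units, a log2 limit of 1, another prior count and leaving out each clone or library. Leaving out EM clones under DESeq2 and counting without shifted windows were added after seeing the data. The script was tested on simulated data. Values of some listed genes are not reported here.

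Genes came from a RefSeq table without strand and promoters from a RefSeq table with strand (GRCh38.p14); no genome sequence was used, so exon, intron and region sequence are not given. Named regions are the 10 largest gaps in each direction (above-median signal, gene end within 10 kb), the 4 markers AMOTL2, RBBP8, ESRP1 and XYLT1, up to 3 largest gaps for each of 21 gene lists (309 genes, all in the table), and gene-end regions (within 1 kb) of EMT and epithelial genes. The comparison, members, lists and motifs were chosen with earlier results of these data known. In 10 of 10 clone pairs the differences between replicates 1 and 2 correlated above 0.1 (0.108 to 0.599). Replicate numbers may therefore pair the libraries, but the labels do not say so and a pairing was not tested.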

Additional observations from a re-analysis of the deposited data

How the results depend on the processing

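The number of called regions (4641) moved by more than 1.5 times with the DESeq2 Wald test (15304) and with libraries in place of clones as units (43610, or 47732 with the replicate block), where libraries of a clone count as independent. Leaving out 1 clone gave from 0 (without EM1, EM2 or EM3) to 33502 (without M1) calls; the cause was not tested. The fit with the replicate block was possible only over libraries. Under the DESeq2 test without EM1, EM2 or EM3 the counts were 6981, 11099 and 7874. The number of regions outside the EM range (31432) became 18862 when all 4 M libraries had to lie outside the range of the 6 EM libraries and 9891 with a gap of at least 1, both stricter by construction, and ran from 30037 (without EM1 replicate 1) to 57166 (without M1) when 1 clone or library was left out. Other scalings, no filter and dropping shifted windows kept both counts within 1.5 times. The median of all regions moved by over 0.1 log2 in 1 setting, by -0.107 without M1.

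Only gene-end regions that had not passed the test reversed. With window medians removed, ELF5 became 0.04, KLF4 0.29, SOX9 -0.37 and TWIST1 -0.25. With loess scaling GRHL1 became -0.02, SNAI1 -0.04 and SOX9 -0.05. With library totals SNAI1 became -0.07 and SOX9 -0.02, and without a filter SNAI1 -0.01. With libraries as units SNAI1 was -0.02, and -0.04 with the replicate block. Leaving out 1 clone or library moved GRHL1 from -0.02 to 0.23, SNAI1 from -0.25 to 0.13, SNAI2 from -0.71 to 1.21 and SOX9 from -0.30 to 0.30. Regions with 1 to 10 counts in an M clone, such as GRHL2 and TGFBR2, limit the precision of the fold more than of the direction.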
